A study of Mus musculus with 16 samples.

Results

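The 8 arrays of the Ppp3cb line were sorted by the level of Ppp3cb measured on each array, because that level went against 4 of the 8 labels. Arrays with a Ppp3cb log2 value below 11 are called Ppp3cb-low here and those at or above 11 Ppp3cb-intact, with 4 arrays on each side of the 16 in the series. Both sides mix the labels. The low side holds the arrays labelled knockout (KO) of animals 18 and 5 and the arrays labelled wild type (WT) of animals 23 and 24. The intact side holds the arrays labelled KO of animals 6 and 9 and the arrays labelled WT of animals 12 and 2. So 2 labels on each side disagree with the grouping, and neither side can be equated with a genotype.

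The series measured RNA from gastrocnemius, the large calf muscle, on Affymetrix Mouse Gene 1.0 arrays with 1 array per mouse. All mice were male on a C57Bl6J background and ate chow in which butter fat supplied 40% of calories, for 8 weeks or longer. Per the labels, the Ppp3cb line holds mice with a whole-body Ppp3cb deletion and WT littermates, and which part of the gene was deleted is not given in the sources used here. The other line, 4 KO and 4 WT littermates, lacks Ppp3r1 in skeletal muscle through a Cre recombinase driven from Mlc1f, so other cells of the muscle keep the gene. The labels name separate animals, so the replicates are mice.

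Calcineurin is a phosphatase switched on by calcium and calmodulin. It is built of a catalytic subunit (Ppp3ca, Ppp3cb or Ppp3cc) and a regulatory subunit (Ppp3r1, or Ppp3r2 in testis). It removes phosphate from NFAT transcription factors, which then enter the nucleus, and in skeletal muscle it is known for its part in slow fibre gene expression. Rcan1 encodes an inhibitor of calcineurin whose transcription NFAT drives.

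Ppp3cb itself chose the groups, so its values are a description with no test. Its log2 levels on the low side were 10.48, 10.22, 10.37 and 10.23 (animals 18, 5, 23 and 24). Those on the intact side were 11.74, 11.61, 11.80 and 11.67 (animals 6, 9, 12 and 2). The values nearest the threshold were therefore 10.48 below it and 11.61 above it, with a gap of 1.14 between them and no array in that gap. The means were 10.32 ± 0.12 and 11.70 ± 0.08 (SD, n = 4 each), a difference of -1.38, or 2.60 times more signal on the intact side. The 8 arrays of the Ppp3r1 line lay between 11.47 and 11.70, close to the intact side. On the low side the gene was still at percentile 93.1 of all probe sets by mean level, so the signal was reduced and not near the bottom of the scale.

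**Figure D1:**
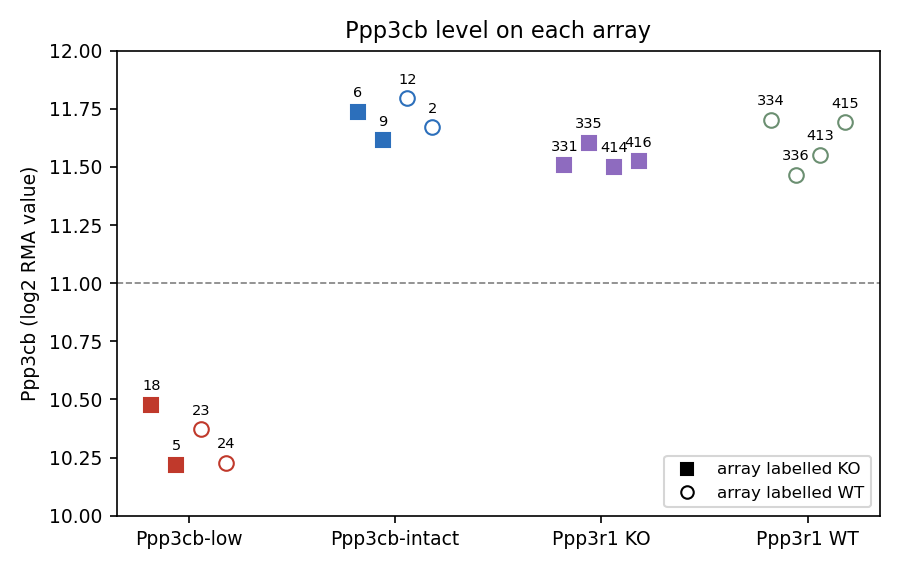
Ppp3cb log2 level (vertical axis) on each array, by group (horizontal axis), with filled squares for arrays labelled KO, open circles for arrays labelled WT, the animal number above each point and the threshold of 11 as a dashed line. Each side of the Ppp3cb line holds 2 arrays of each label, and the 2 sides are 1.14 apart at their nearest.

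The arrays were those of muscle on both sides. Acta1, Ckm, Myh4, Myh1, Tnnt3 and Mylpf, which encode contractile proteins and muscle creatine kinase, each had a mean at or above percentile 98.56 of all probe sets. Over the 15251 transcript clusters tested below, pairs of arrays within the low side correlated between 0.986 and 0.992, pairs within the intact side between 0.987 and 0.991, and pairs of a low with an intact array between 0.978 and 0.990. Arrays of the Ppp3cb line with arrays of the Ppp3r1 line correlated between 0.923 and 0.976. Levels set side by side across the lines below are therefore descriptions.

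Among 15251 transcript clusters tested (probe sets with 1 gene symbol and a mean log2 level of at least 6.18, 13918 genes, Ppp3cb left out), 88 passed an adjusted p under 0.05 in limma between low and intact arrays, 0.577% of those tested. These were 47 clusters that rose on the low side (0.308%) and 41 that fell (0.269%), for 86 genes. At an unadjusted p under 0.05 the count was 2089 (13.7%), with 1176 higher (7.71%) and 913 lower (5.99%). The p-values compare arrays sorted by the level of 1 gene and not by label, and the number of arrays limits their precision. The low and intact arrays did not overlap for 83 of the 88, and for 12.2% of all tested clusters. Since the 88 were chosen for a difference between these same arrays, the larger share follows from that choice and is a description. Leaving out single arrays moved the count by over 1.5 times in 7 cases: it was 41 without animal 18, 57 without animal 5, 38 without animal 23, 35 without animal 6, 48 without animal 9, 34 without animal 12 and 50 without animal 2.

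The same 8 arrays compared by label gave 0 called clusters for labelled KO minus labelled WT (0% of those tested, limma), with 264 at an unadjusted p under 0.05 (1.73%). With the level in the fit as well, the label again gave 0 calls (0%) and 303 clusters at an unadjusted p under 0.05 (1.99%). Every one of the 88 clusters differed in the same direction within arrays labelled KO (2 low, 2 intact) and within arrays labelled WT (2 low, 2 intact). Since the 88 were chosen on all 8 arrays, that count is a description. The smallest difference was 0.24 in size within the arrays labelled KO and 0.20 within those labelled WT.

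**Figure D2:**
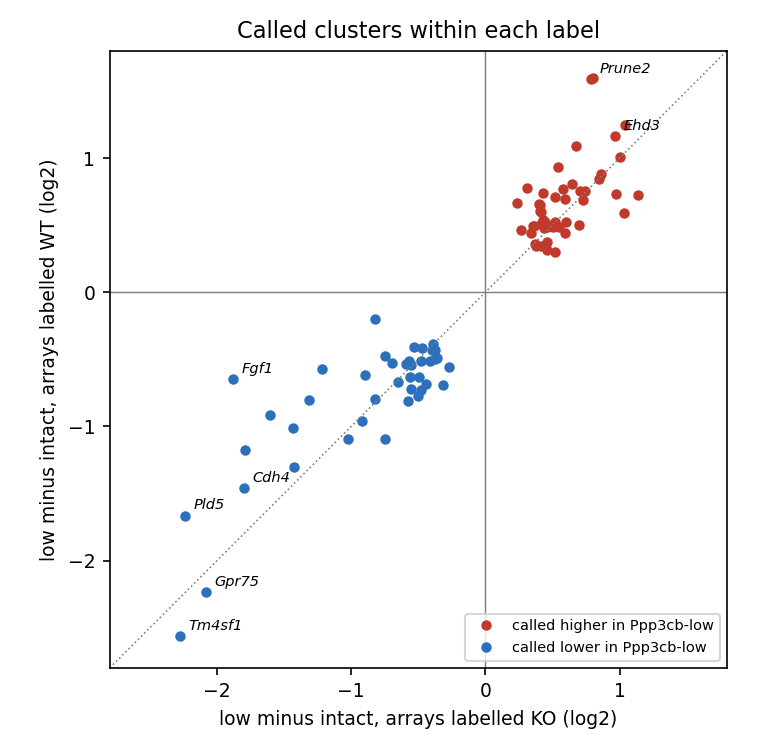
Low minus intact difference (log2) of the 88 called clusters within the arrays labelled KO (horizontal axis) and within the arrays labelled WT (vertical axis), with clusters called higher in red, those called lower in blue and a dotted line where both differences are equal. Every point lies in the quadrant where both differences have one sign, and Tm4sf1 and Gpr75 lie farthest out.

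Tm4sf1 and Gpr75 had the smallest p among the decreases and Ehd3 was among the increases of more than 1, and their promoters, from 250 bases before to 50 bases after the start of the gene in RefSeq (GRCm38.p6), are shown to set the sequence beside the change. Capitals mark the core NFAT motif GGAAA or, on the other strand, TTTCC. Tm4sf1 is read from chr3:57301939-57302238 (minus strand), Gpr75 from chr11:30885108-30885407 (plus strand) and Ehd3 from chr17:73804591-73804890 (plus strand).
Tm4sf1: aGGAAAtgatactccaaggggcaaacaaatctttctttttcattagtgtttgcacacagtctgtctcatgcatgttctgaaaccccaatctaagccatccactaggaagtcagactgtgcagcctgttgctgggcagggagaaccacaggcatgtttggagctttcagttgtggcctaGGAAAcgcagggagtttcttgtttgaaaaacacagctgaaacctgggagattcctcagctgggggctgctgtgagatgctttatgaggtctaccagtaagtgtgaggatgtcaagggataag
Gpr75: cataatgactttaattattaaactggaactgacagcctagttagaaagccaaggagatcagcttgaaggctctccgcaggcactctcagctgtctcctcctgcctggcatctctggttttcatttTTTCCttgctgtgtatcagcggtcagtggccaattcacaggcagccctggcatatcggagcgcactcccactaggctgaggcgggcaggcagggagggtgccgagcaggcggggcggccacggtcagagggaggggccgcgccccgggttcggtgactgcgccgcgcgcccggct
Ehd3: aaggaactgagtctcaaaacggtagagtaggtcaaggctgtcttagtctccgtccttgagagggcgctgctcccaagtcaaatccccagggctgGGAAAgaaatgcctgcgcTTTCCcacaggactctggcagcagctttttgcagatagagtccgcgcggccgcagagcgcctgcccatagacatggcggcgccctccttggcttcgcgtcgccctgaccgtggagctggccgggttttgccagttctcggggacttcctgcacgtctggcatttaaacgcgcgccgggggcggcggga
The core motif occurred 2 times in the Tm4sf1 window, 1 time in that of Gpr75 and 2 times in that of Ehd3. Of the 86 called genes 64 had a promoter in the table. The motif was in 17 of 27 promoters of genes that fell (63.0%) and 20 of 37 of genes that rose (54.1%), beside 58.4% of the 11026 promoters of tested genes and 61.3% of all 27025. Such a short motif is common, and a match is only a match of letters.

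Among the membrane and adhesion genes, Tm4sf1, a tetraspan membrane protein abundant in endothelial cells, fell most. Its log2 level was 6.84, 7.20, 6.57 and 6.95 in low animals 18, 5, 23 and 24, against 9.35, 9.25, 9.39 and 9.27 in intact animals 6, 9, 12 and 2. The 2 sides did not overlap, and the Ppp3r1 line lay at the intact level, between 8.64 and 9.35. The difference was -2.42 (SE 0.14, limma adjusted p = 1.55e-08), which is larger in size than the difference in Ppp3cb. In these whole-muscle samples fewer cells of a type and less RNA per cell cannot be told apart. Among 16 endothelial markers on the array and tested, 10 were higher and 6 lower on the low side, and their median difference was 0.04. Of these 0 were called, beside 0.577% of all tested clusters, so a count of 0 among 16 says little.

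Cdh4, a classical cadherin that joins cells, fell by 1.63 (SE 0.20, limma adjusted p = 6.90e-04). It read 7.42, 7.51, 7.37 and 8.12 on the low arrays, against 9.49, 9.04, 9.60 and 8.81 on the intact arrays. Animal 24 was the highest of the low arrays, with no overlap. Chodl, a lectin-domain membrane protein, averaged 6.54 ± 0.13 on low arrays and 7.15 ± 0.10 on intact arrays (SD, n = 4 each; difference -0.61, SE 0.09, limma adjusted p = 0.00464). Lypd6, a small membrane-anchored protein, averaged 6.71 ± 0.15 and 7.93 ± 0.60 in the same order of groups, low then intact, and intact animal 2 at 7.13 was the nearest to the low side. Tspan5, a tetraspanin, rose, with 8.29, 7.75, 8.25 and 8.27 on low arrays against 7.05, 7.27, 7.51 and 7.24 on intact arrays (difference 0.87, SE 0.12, limma adjusted p = 0.00191).

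Gpr75, a G protein-coupled receptor, read 7.65, 7.16, 7.47 and 7.08 on the low arrays, against 9.54, 9.43, 9.40 and 9.61 on the intact arrays, a difference of -2.16 (SE 0.13, limma adjusted p = 2.58e-08). Here the intact side was the one that stood apart: the Ppp3r1 line lay at the low level, between 7.08 and 7.64. Slc1a3, a glutamate transporter, had the same pattern, averaging 7.02 ± 0.08 on low arrays and 7.95 ± 0.37 on intact arrays (difference -0.92), with the Ppp3r1 line between 6.59 and 7.17. Vipr2, a receptor for vasoactive intestinal peptide, rose, with 7.75, 7.24, 7.55 and 7.96 on low arrays against 6.96, 6.95, 6.82 and 6.82 on intact arrays (difference 0.74, SE 0.11, limma adjusted p = 0.00381). Chrna2, a nicotinic acetylcholine receptor subunit, rose by 0.58 (SE 0.10), and its intact animals lay between 6.09 and 6.50 with no overlap with the low ones, between 6.83 and 7.09. The call of Chrna2 was lost in 6 of 29 alternative settings. Among genes picked out after their values were seen, Kcnk1, a potassium channel, rose by 0.88 (SE 0.17), Slc39a14, a zinc transporter, by 0.53 (SE 0.10) and Spns2, an exporter of sphingosine 1-phosphate, by 0.73 (SE 0.14). Xpr1, a phosphate exporter, fell by 0.70 (SE 0.13). Of 30 alternative settings, 7 ended the call of Kcnk1, 6 that of Slc39a14, 8 that of Spns2 and 6 that of Xpr1.

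H2-T10, a non-classical major histocompatibility gene, read 6.53, 6.51, 6.42 and 6.85 on low arrays, against 8.35, 8.28, 8.10 and 7.54 on intact arrays (difference -1.49, SE 0.21, limma adjusted p = 0.00191). Such genes have near-identical copies, so its probe set may read more than 1 of them. Ifi203, of the interferon-inducible p200 family and likewise open to shared probes, averaged 8.19 ± 0.30 on low arrays and 9.45 ± 0.34 on intact arrays (SD, n = 4 each; difference -1.26). Of 14 interferon-stimulated genes tested, 0 were called, beside 0.577% of all tested clusters, and their median difference was 0.05. The zinc finger genes Zfp605 and Zfp949 fell by 1.36 (SE 0.13) and by 1.06 (SE 0.16). Zfp605 read 6.26, 6.32, 6.12 and 6.65 on low arrays against 7.67, 7.76, 7.38 and 7.99 on intact arrays, and the Ppp3r1 line lay between 5.89 and 6.44, at the low level. Plscr2, a phospholipid scramblase gene, averaged 6.25 ± 0.08 and 7.01 ± 0.16, low then intact, with no overlap. Pld5, a member of the phospholipase D family, read 7.14, 6.49, 6.85 and 7.52 on low arrays against 9.17, 8.94, 9.65 and 8.05 on intact arrays (difference -1.95, SE 0.33). Ankrd33b, an ankyrin repeat gene, fell by 0.66 (SE 0.11) at 1 cluster, while its other 3 tested clusters differed by -0.34, 0.05 and close to 0, and did not pass.

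Among the increases, the smallest p belonged to Ybx2, a Y-box protein that binds RNA in germ cells. It read 8.05, 8.10, 8.10 and 8.03 on low arrays against 7.45, 7.51, 7.39 and 7.35 on intact arrays (difference 0.64, SE 0.08, limma adjusted p = 5.21e-04). The spread within a side was small and there was no overlap. Ehd3, an EH-domain protein of endocytic recycling, read 8.33, 8.85, 9.06 and 8.56 on low arrays against 7.75, 7.49, 7.70 and 7.58 on intact arrays (difference 1.07, SE 0.13, limma adjusted p = 6.90e-04). The Ppp3r1 line lay between these, from 7.90 to 8.35, just overlapping the lowest of the low arrays. Prune2, a BCH-domain protein, rose at both of its clusters, by 1.19 (SE 0.15) and by 1.20 (SE 0.19). At the first it read 9.04, 9.13, 9.40 and 9.74 on low arrays against 8.12, 8.48, 7.84 and 8.12 on intact arrays. Bod1, which helps chromosomes attach to the spindle, read 9.09, 9.05, 9.11 and 8.95 on low arrays against 8.52, 7.62, 7.91 and 8.13 on intact arrays, and the Ppp3r1 line, from 8.78 to 9.37, lay with the low side. AA388235 rose by 1.14 (SE 0.15, limma adjusted p = 0.0014), Efhd2 by 0.51 (SE 0.09), Arntl2 by 0.53 (SE 0.09) and Wdr54 by 0.48 (SE 0.09). The call of AA388235 was lost in 4 of 29 alternative settings, that of Efhd2 in 4 of 30, that of Arntl2 in 5 of 29 and that of Wdr54 in 6 of 29.

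**Figure D3:**
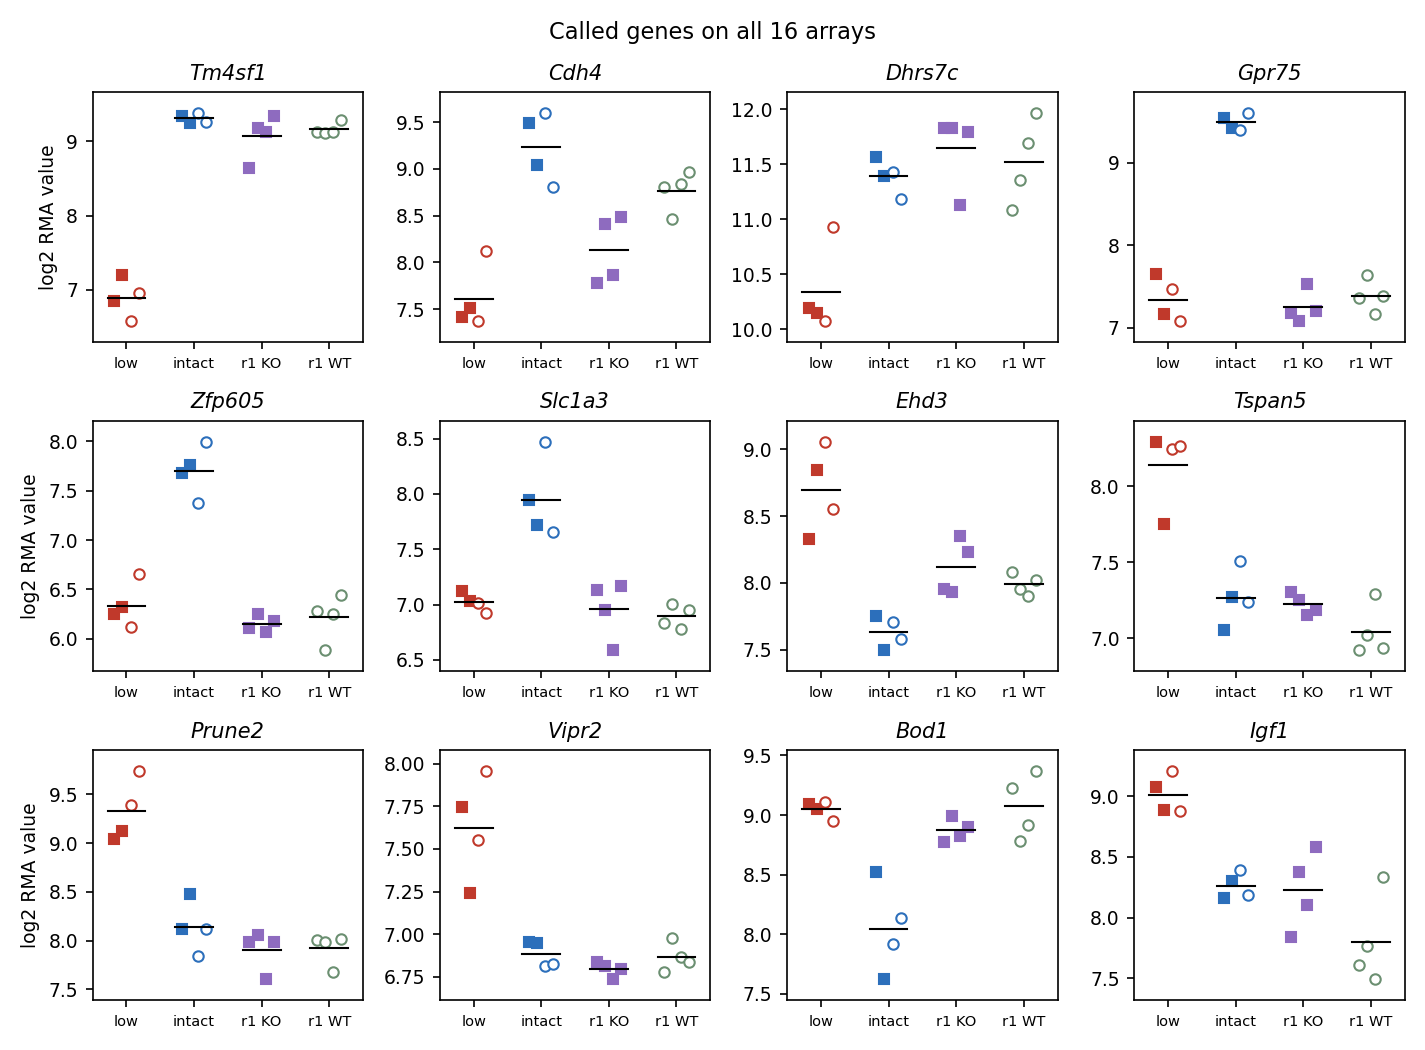
Log2 level of 12 called genes on all 16 arrays, with the Ppp3cb-low arrays left of the Ppp3cb-intact arrays and then the Ppp3r1 KO and WT arrays, filled squares for arrays labelled KO, open circles for arrays labelled WT and a bar at each group mean. Tm4sf1 and Dhrs7c are low on the low side alone, while Gpr75, Zfp605 and Slc1a3 are high on the intact side alone.

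Mylk2, the myosin light chain kinase of skeletal muscle, read 12.52, 12.74, 12.48 and 12.44 on low arrays against 12.96, 13.02, 12.97 and 12.93 on intact arrays (difference -0.43, SE 0.08, limma adjusted p = 0.0176). The sides did not overlap. Asb2, a substrate receptor of a ubiquitin ligase in muscle, averaged 11.55 ± 0.14 on low arrays and 12.15 ± 0.16 on intact arrays (difference -0.60, SE 0.10). Dhrs7c, a dehydrogenase of the sarcoplasmic reticulum picked out after its value was seen, read 10.19, 10.14, 10.07 and 10.93 against 11.56, 11.39, 11.43 and 11.18, low then intact (difference -1.06, SE 0.20). Animal 24 was the low array nearest the intact side. Aldh9a1, an aldehyde dehydrogenase of carnitine synthesis, rose by 0.62 (SE 0.10), and As3mt, an arsenite methyltransferase, by 0.85 (SE 0.14). Fbp2, the muscle fructose bisphosphatase, was also picked out after its value was seen and read 8.84, 9.20, 8.75 and 9.05 on low arrays against 7.92, 8.43, 7.98 and 8.14 on intact arrays (difference 0.85, SE 0.18, limma adjusted p = 0.0354). Of 30 alternative settings, 9 ended the call of Mylk2, 10 that of Dhrs7c and 12 that of Fbp2.

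Igf1, Fgf1 and Pdgfd were picked out after their values were seen. Igf1, insulin-like growth factor 1, read 9.07, 8.89, 9.21 and 8.88 on low arrays against 8.16, 8.30, 8.40 and 8.18 on intact arrays (difference 0.75, SE 0.17, limma adjusted p = 0.0490). The sides did not overlap, and its call was lost in 20 of 30 alternative settings. Fgf1, fibroblast growth factor 1, read 7.05, 7.14, 7.47 and 8.70 on low arrays against 8.74, 9.21, 8.48 and 8.99 on intact arrays (difference -1.26, SE 0.26, limma adjusted p = 0.0343). Animal 24 overlapped the intact side, and the call was lost in 12 of 30 settings. Pdgfd, a platelet-derived growth factor, fell by 0.46 (SE 0.10), and its call was lost in 11 of 29.

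Pabpc1, the cytoplasmic poly(A)-binding protein, averaged 10.78 ± 0.17 on low arrays and 10.22 ± 0.07 on intact arrays (SD, n = 4 each; difference 0.56, SE 0.10, limma adjusted p = 0.0132). Among genes picked out after their values were seen, Eef1a1, an elongation factor of translation, rose by 0.50 (SE 0.09), Rplp1, a ribosomal protein, by 0.38 (SE 0.08) and Slc25a5, an adenine nucleotide translocase, by 0.46 (SE 0.09). Eef1a1, Rplp1 and Slc25a5 have many processed pseudogenes, so their probe sets may share signal. Of 30 alternative settings, 6 ended the call of Pabpc1, 6 that of Eef1a1, 20 that of Rplp1 and 10 that of Slc25a5. A second Rplp1 cluster differed by 0.28 and did not pass. Got1, the cytosolic aspartate aminotransferase, was also picked out after its value was seen. It rose by 0.45 (SE 0.10), and its call was lost in 22 of 30 settings.

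The 88 calls did not all describe arrays with low Ppp3cb as the odd side. For 31 of them the 4 low arrays lay outside the range of the other 12 arrays, for 36 the 4 intact arrays did, and for 21 neither did. Over all tested clusters the same shares were 1.35% for low arrays and 5.92% for intact arrays. The 88 were chosen for a difference between low and intact arrays, so larger shares among them follow from that choice. Which side lies apart also depends on the level of the Ppp3r1 line. Over all tested clusters the mean of that line lay nearer the intact than the low side in 35.8%. Tm4sf1, Ybx2, Prune2, Tspan5, Vipr2, Asb2, Mylk2, Dhrs7c and Igf1 were among the first kind. Gpr75, Zfp605, Ehd3, Ifi203, Bod1, Slc1a3, Plscr2, Lypd6 and Pabpc1 were among the second.

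The other calcineurin genes were tested and not called. Ppp3ca, the alpha catalytic subunit, read 11.26, 11.33, 11.20 and 11.06 on low arrays against 11.50, 11.42, 11.58 and 11.44 on intact arrays, without overlap (difference -0.27, SE 0.08, limma adjusted p = 0.146; two-sided exact permutation p = 0.0286, the smallest that 4 against 4 arrays can give). Ppp3r1, the regulatory subunit, read 9.64, 9.53, 9.51 and 9.43 on low arrays against 9.75, 9.68, 10.08 and 9.80 on intact arrays, again without overlap (difference -0.30, SE 0.10, limma adjusted p = 0.220). Any cluster without overlap gives that smallest permutation p. Of all tested clusters 12.2% did not overlap, 5.57% with the low arrays lower. Ppp3cc, the gamma catalytic subunit, differed by -0.21 (SE 0.12), with overlap, and by -0.10 without animal 24. Ppp3r2 was below the level filter, between 4.28 and 4.68. Rcan1 differed by -0.61 (SE 0.28, limma adjusted p = 0.345): animal 24 read 8.59 while the other 3 low arrays lay between 10.08 and 10.25, and the intact arrays between 10.24 and 10.48. Without animal 24 the difference was -0.22. Of 10 NFAT genes and NFAT kinases 8 were lower on the low side, 0 were called (beside 0.577% of all tested clusters) and the median was -0.07. Of 12 MEF2 factors and class II deacetylases 8 were lower, 0 were called and the median was -0.08. For 4 of those 12 the low arrays lay below the intact arrays without overlap, beside 5.57% of all tested clusters, among them Hdac4 at -0.46 (SE 0.16, limma adjusted p = 0.217) and Mef2c at -0.22 (SE 0.12).

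The myosin heavy chains that mark fibre types did not pass. Myh4, of type IIB fibres, averaged 13.99 ± 0.07 on low arrays and 14.06 ± 0.05 on intact arrays (SD, n = 4 each; difference -0.07, SE 0.04). Myh1 differed by 0.14 (SE 0.12) and Myh2, of type IIA fibres, by 0.21 (SE 0.24), both with overlap. Without animal 12 these were 0.020 for Myh1 and 0.057 for Myh2, and without animal 9 they were 0.24 and 0.33. Without animal 24 Myh1 was 0.072, and without animal 23 Myh4 was -0.044. Myh7, the slow myosin, read 10.93, 12.28, 11.07 and 10.37 on low arrays against 12.05, 12.32, 10.83 and 12.66 on intact arrays (difference -0.80, SE 0.55, limma adjusted p = 0.523). The spread within each side was as large as the difference. Of 16 slow fibre proteins 11 were lower on the low side and 0 were called, beside 0.577% of all tested clusters. The median difference of these proteins was -0.27, beside 0.01 for all tested clusters. That median was -0.49 without animal 12 and -0.07 without animal 2.

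Over 36 gene lists, 534 distinct genes were tested, with 0 called higher and 2 called lower (0.375% of them, beside 0.577% of all tested clusters): Mylk2 in the fast fibre list and Chodl in the tendon and cartilage list. In several lists most members lay on one side of 0 without any being called. Of 26 tested members of the fatty acid list (uptake and oxidation), 24 were higher on the low side, with a median difference of 0.21. In 6 of them the low arrays lay above the intact arrays without overlap, beside 6.58% of all tested clusters, among them the thioesterase gene Acot2 at 0.93 (SE 0.26, limma adjusted p = 0.129) and the triglyceride lipase gene Pnpla2 at 0.58 (SE 0.17, limma adjusted p = 0.150). Acot2 read 11.91, 11.11, 12.23 and 11.57 on low arrays against 10.94, 11.07, 10.31 and 10.81 on intact arrays. Leaving out single arrays moved the list's median between 0.13 and 0.27, and the low end was without animal 12.

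Of 53 oxidative phosphorylation genes 38 were higher, with a median of 0.05 and 0 called (beside 0.577% of all tested clusters). Of 23 immediate early genes, which respond within minutes to stimuli, 22 were higher, with a median of 0.24 and 0 called. Their smallest p was that of Ier3, which lay between 7.47 and 7.80 on low arrays and between 6.80 and 7.22 on intact arrays (difference 0.61, SE 0.14, limma adjusted p = 0.0606). It passed without Ppp3r1 KO animal 331 or 414, which enter the SE (lowest adjusted p = 0.0147). Of 19 genes of the ATF4 stress response and serine pathway 18 were higher, with a median of 0.22 and 0 called, and that median was 0.13 without animal 24. Of 24 calcium handling genes of the sarcoplasmic reticulum 23 were lower, with a median of -0.11 and 0 called. Casq1, the calcium store protein, differed by -0.28 (SE 0.13), Jph1, which ties the reticulum to the surface membrane, by -0.22 (SE 0.06) and Stac3, of the excitation-contraction machinery, by -0.29 (SE 0.11), each without overlap. They were the only 3 of the 24 without overlap on the lower side, beside 5.57% of all tested clusters. Of 17 circadian clock genes 9 were lower and 0 were called, with Nr1d1 at -0.52 (SE 0.12, limma adjusted p = 0.0760) and Arntl at -0.57 (SE 0.17), both without overlap and the 2 such members of the list on the lower side, beside 5.57% of all tested clusters. Arntl was -0.35 without animal 2. Arntl2, whose called cluster is not among these 17, was higher on the low side (difference 0.53, SE 0.09, limma adjusted p = 0.0119). Nr1d1 passed without animal 2 or without Ppp3r1 KO animal 414 or 416 (lowest limma adjusted p = 0.0454).

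**Figure D4:**
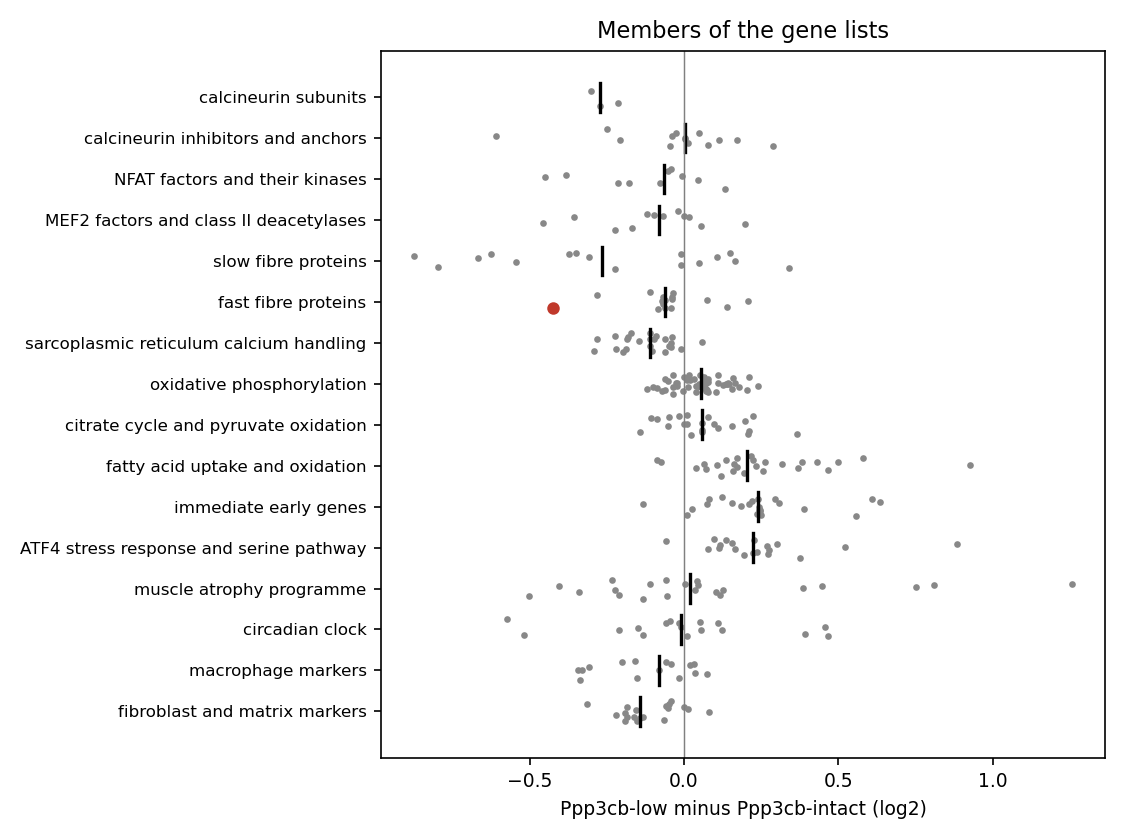
Low minus intact difference (log2, horizontal axis) of each tested member of 16 gene lists (vertical axis), as grey points for members that were not called, a red point for the called member Mylk2 and a black bar at each list's median. The median is 0.21 for fatty acid uptake and oxidation, 0.24 for immediate early genes and -0.27 for slow fibre proteins.

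Of the markers of other cell types that a muscle sample can hold, 1 was called. Over 11 such lists 118 of 165 listed genes were tested. Of these, 0 were called higher and Chodl was called lower, beside 0.308% and 0.269% of all tested clusters. Low and intact arrays did not overlap for 4 higher and 2 lower, beside 12.2% of all tested clusters. The mean level of macrophage markers (15 of 17 tested) ranged from 7.06 to 7.91 over the low arrays and from 7.34 to 7.92 over the intact arrays. For fibroblast and matrix markers (19 of 20 tested) the ranges were 8.52 to 8.94 and 8.66 to 9.03, low then intact, and 16 of the 19 were lower on the low side with 0 called. For endothelial markers (16 of 16) they were 8.80 to 9.05 and 8.84 to 8.98. For smooth muscle and pericyte markers (13 of 13) they were 9.23 to 9.44 and 9.24 to 9.38. For adipocyte markers (11 of 15) they were 8.77 to 9.01 and 8.67 to 9.11, and for Schwann cell markers (8 of 13) 7.60 to 7.79 and 7.64 to 7.87. For tendon and cartilage markers (13 of 15) they were 7.76 to 8.11 and 7.81 to 8.22, for keratinocyte markers (10 of 14) 6.83 to 7.90 and 6.75 to 8.34, and for erythroid markers (2 of 11) 6.99 to 7.18 and 6.82 to 6.94. Few lymphocyte markers (6 of 16) and granulocyte or mast cell markers (5 of 15) were above the filter. Their part in the calls was not tested.

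The genes next to Ppp3cb were examined because they sit beside the targeted locus. Of the 25 coding genes taken on each side 40 were tested, with 0 called, beside 0.577% of all tested clusters. On the low side 19 of them were higher and 21 lower, with a median of 0.00. The nearest gene on each side differed most. Mss51, a mitochondrial protein gene of skeletal muscle, read 12.63, 12.76, 12.86 and 10.81 on low arrays against 13.41, 13.28, 13.39 and 13.27 on intact arrays. All low arrays lay below all intact ones, and animal 24 was far below the other 3. The difference was -1.07 (SE 0.29, limma adjusted p = 0.128). Usp54, which encodes a protein related to ubiquitin proteases, read 8.79, 8.33, 8.63 and 8.33 on low arrays against 8.09, 7.96, 8.17 and 8.15 on intact arrays (difference 0.43, SE 0.11, limma adjusted p = 0.0922). The next measured genes, Anxa7 at -0.08 (SE 0.16) and Myoz1 at -0.04 (SE 0.05), overlapped. Without animal 24, 1 of the 40 was called, Mss51, with a smaller difference of -0.59 (limma adjusted p = 0.00498). Anxa7 was -0.14 without animal 23 and 0.034 without animal 24, and Myoz1 was -0.022 without animal 6.

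**Figure D5:**
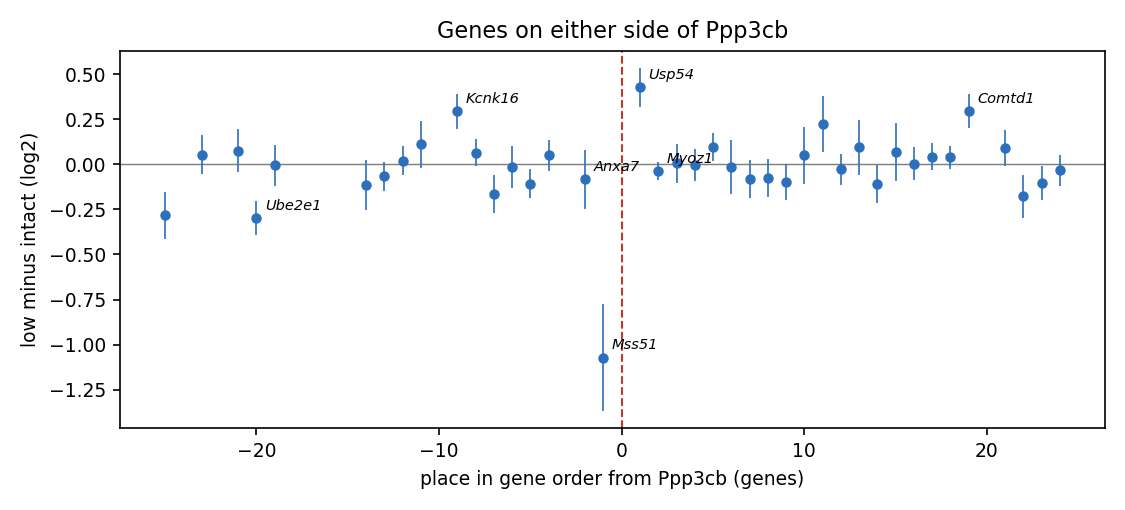
Low minus intact difference (log2, vertical axis) of the tested coding genes on either side of Ppp3cb by their place in the gene order (horizontal axis, in genes, with Ppp3cb at 0 as a dashed line), with bars of 1 SE. Mss51 at -1.07 and Usp54 at 0.43, the genes next to Ppp3cb, lie farthest from 0.

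Called genes lay near each other elsewhere in the genome, a pattern looked for after the calls were seen. Of 82 called genes placed in the RefSeq order of coding genes, 29 lay within 25 places of another called gene, in 19 neighbouring pairs. Of tested genes within 25 places of another called gene 1.42% were called, and of the other tested genes 0.472%. The stretches that follow were drawn from called gene to called gene after the calls were seen, which raises their share of calls. On chromosome 11 a stretch of 23 coding genes held 5 called genes among 20 tested. They were Ccdc85a (0.68, SE 0.15), Cfap36 (-0.42, SE 0.09), Acyp2 (0.52, SE 0.11), Gpr75 (-2.16) and Bod1 (1.01, SE 0.15), so neighbours differed in opposite directions. On chromosome 12 a stretch of 41 coding genes held 5 among 35 tested (Klc1, Ahnak2, Tmem121, Vipr2 and Wdr60), of which Vipr2 and Wdr60 (0.41, SE 0.09) adjoin. Many of these calls were lost in other settings: Ccdc85a lost its call in 19 of 30, Cfap36 in 19 of 29, Acyp2 in 14 of 30, Klc1 in 18 of 30, Tmem121 in 20 of 29 and Wdr60 in 20 of 30. Gpr75 lost its call in 0 of 30, Bod1 in 4 of 30 and Vipr2 in 2 of 29, and Ahnak2 was not followed across settings. The chromosome of Ppp3cb held 2 of the called genes among its 453 tested genes, beside 82 called among the 13272 tested genes placed in the order. What sets these stretches apart was not tested.

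The Ppp3r1 line was compared over the same clusters for Ppp3r1 KO minus WT, which shares no array with the Ppp3cb line. Its targeted gene Ppp3r1 read 9.28, 9.25, 8.98 and 9.19 in KO muscle against 9.57, 9.36, 9.39 and 9.64 in WT muscle, without overlap (difference -0.32, SE 0.10, limma adjusted p = 0.248). Which part of Ppp3r1 the probe set covers relative to the deletion was not tested. In that line 1 cluster was called, Myh2 (0.00656% of those tested), and 0 of the 88 were, with 2158 clusters at an unadjusted p under 0.05 (14.1%). Without Ppp3r1 KO animal 416 the count in that line was 109. The difference between the low minus intact difference and the Ppp3r1 KO minus WT difference was called for 13 clusters (0.0852%), 11 of them among the 88, and 885 clusters had an unadjusted p under 0.05 (5.8%). Tm4sf1 differed by -2.42 in the Ppp3cb line and by -0.10 in the Ppp3r1 line, and the difference between these was -2.32 (SE 0.19, limma adjusted p = 8.68e-06). For Gpr75 the values were -2.16 and -0.14, and the difference between them was -2.01 (SE 0.18, limma adjusted p = 2.06e-05). Myh2 differed by 0.21 in the Ppp3cb line and by -2.08 in the Ppp3r1 line (difference 2.29, limma adjusted p = 0.0125). Without single arrays the count of 13 lay between 3 and 16: it was 3 without Ppp3r1 WT animal 334, 4 without animal 23, 5 without animal 12, Ppp3r1 KO animal 414 or Ppp3r1 WT animal 336, 6 without animal 18, 7 without animal 6 or Ppp3r1 KO animal 335, and 8 without animal 2 or Ppp3r1 KO animal 331.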

How the data were processed

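RNA from gastrocnemius of 16 mice was measured on 1 array each. Log2 values as deposited come from GCOS 1.0 and RMA, which corrects background, normalizes by quantiles and summarises each probe set, per the submitters' processing notes. The genome build, and whether RMA was run on both lines at once, is not given in the sources used here. Ratio columns of the deposited table ("Normalized", per the file headers) equalled the linear value over the median of the line (99.37% within 1%) and served for that check alone. A second deposited log2 table was equal to the first.

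Of 35557 probe sets, 21789 had 1 gene symbol in the platform annotation, 1621 had several, and 12147 had no entry and stay unnamed. A RefSeq table held the gene IDs of 21698. The 30th percentile of mean level (6.18) was the filter, and 6537 single-symbol probe sets fell below it. Group means for Ppp3cb-low, Ppp3cb-intact, Ppp3r1 KO and Ppp3r1 WT were fitted in 1 model of the 16 arrays (limma 3.58.1 under R 4.3.3, 12 residual degrees of freedom, moderated variances with an intensity trend), so the Ppp3r1 line also enters each SE. A call is a Benjamini-Hochberg adjusted p under 0.05, with the adjustment made across every tested cluster. In 36 gene lists the cluster of highest mean stood for its gene, and lists were described by counts and medians. Functions were tested on simulated data.

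The genes named were the calcineurin subunits, Rcan1, the adult myosin heavy chains, the nearest measured neighbours of Ppp3cb, the 15 called clusters with the smallest p in each direction, 5 clusters for the difference between the lines and up to 4 members per list, cut for length. Predicted genes were passed over, and other names are marked as picked after their values were seen. The grouping, the lists and the rule were chosen with earlier results of these data known. Alternatives covered the filter, the arrays in the fit, normalization, array weights, the variance prior, clusters per gene, the threshold, the label as a term, arrays of 1 label, arrays that match or oppose their label, and each array left out.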

Additional observations from a re-analysis of the deposited data

Results flagged for a closer look

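Among 89 genes checked in 178 groups of 4 arrays, 12 groups had an array set apart from the other 3 by Dixon's criterion. Chance alone gives about 5% of groups, so 12 of 178 is not far from that share. Many of these genes were named for a small p on the same arrays, so the 5% may not hold for them. The arrays below are a description. Animal 24, labelled WT and Ppp3cb-low, was that array for Rcan1 (8.59), Myh2 (13.34), Mss51 (10.81), Prune2 at its second cluster (9.52), Dhrs7c (10.93), Xpr1 (9.84) and Hddc3, an HD-domain hydrolase gene (8.36). The other low arrays of Hddc3 lay between 9.56 and 9.68. On the low side animal 5 was apart for Tspan5 (7.75) and animal 23 for Got1 (13.40). On the intact side animal 6 was apart for Wdr60 (7.14), and animal 12 for Klc1, a kinesin light chain (9.69), and Dpy30, a subunit of histone methyltransferase complexes (9.58). Hddc3 and Dpy30 were picked out after their values were seen. Their calls were lost in 18 of 30 alternative settings for Hddc3 and in 16 of 30 for Dpy30. Without animal 24 the comparison of low with intact arrays called 81 clusters, 62 of them among the 88.

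Of the 13 clusters for which the low minus intact difference differed from the Ppp3r1 KO minus WT difference in limma, 11 belong to the genes checked here. The other two, Gm7276 and Adhfe1, are outside that set. The values below are the low minus intact difference less the Ppp3r1 KO minus WT difference. They were 2.29 for Myh2 (adjusted p = 0.0125), 0.60 for Ybx2 (0.0427), 1.20 for Prune2 at its first cluster (0.0427), 1.21 for Bod1 (0.0427), 1.30 for As3mt (0.0185) and 0.88 for Chrna2 (0.0290). They were -2.32 for Tm4sf1 (8.68e-06), -2.01 for Gpr75 (2.06e-05), -1.30 for Zfp605 (0.0125) and -0.94 for Ankrd33b (0.0328). For Acyp2, an acylphosphatase, the value was 0.85 (0.0427). In all of these but Myh2 the larger difference was in the Ppp3cb line.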

How the results depend on the processing

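All 88 called clusters kept their direction in every alternative where they were tested. The 88 were chosen on these same arrays, and for 83 of them low and intact arrays did not overlap. Dropping arrays could not change the direction of those 83, so the count is a description. The count was 138 in the Ppp3cb line alone (55 higher, 83 lower, 70 of the 88 among them), 538 with array weights and 169 at an adjusted p under 0.1. With 2 arrays against 2 it was 13 in arrays labelled KO, 11 in arrays labelled WT, 12 in arrays whose level matches the label and 20 in those whose level goes against it. Without single arrays it ran from 34 to 116. Of the 30 clusters named by smallest p, these 4 comparisons called 8, 8, 6 and 10, and single arrays left 25 to 30. Tm4sf1 and Gpr75 kept their call in all 30 alternatives and Zfp605 in all 29 that tested it. Called list members were 2 of 534 tested in the report. They numbered 1 with the filter at the 50th percentile, 16 with array weights and 6 at an adjusted p under 0.1. All tested clusters gave 69, 538 and 169 calls in these 3 settings, beside 88 of 15251 in the report. List members called were 0 within either label and among arrays against their label, and 1 to 4 without single arrays. Neighbours of Ppp3cb called were 0 of 40 tested in the report. They were 4 with array weights and 1 at an adjusted p under 0.1, beside the 538 and 169 of all tested clusters, and 0 to 1 without single arrays. The difference between the lines gave 7 without the filter, 28 with array weights, 26 at an adjusted p under 0.1, and 3 to 16 without single arrays. Ppp3r1 KO minus WT gave 2 with repeated quantile normalization, 2 with array weights, 4 at an adjusted p under 0.1, and 1 to 109 without single arrays. Labelled KO minus labelled WT gave 0 to 2 without single arrays. Small uncalled differences changed sign: Myh1 was -0.039, Myh4 0.016 and Anxa7 0.023 in arrays labelled KO, Anxa7 ran from -0.14 to 0.034 without single arrays (0.034 without animal 24), and Myoz1 was 0.0021 in arrays that match their label. The causes were not tested. No paired analysis was possible because the groups share no animal numbers. The number of arrays limits every value.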
